A study of Mus musculus with 4 samples.

Results

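The transcripts of RNA polymerase II (Pol II), of the general transcription factors that place it on promoters, and of the TBP-associated factors were examined in late two-cell mouse embryos cultured with or without an inhibitor of MYC. The 48 genes were taken by symbol: Polr2a to Polr2m, the Gtf2a, Gtf2b, Gtf2e, Gtf2f and Gtf2h genes, the numbered Taf genes without the Pol I factors Taf1a to Taf1d, and Tbp, Tbpl1 and Tbpl2. They were 48 of the 24411 genes listed in each library, and all 48 were among the 13549 genes with enough counts to be tested. By role they were 12 subunits of Pol II, 1 associated protein (Polr2m), 13 general factors including Tbp, 13 TAFs of the promoter-binding complex TFIID, and 10 genes in all that were variant forms, relatives or associates of these (Polr2m among them).

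Both groups consisted of ICR embryos made by in vitro fertilization, cultured in KSOM medium with bovine serum albumin and collected at 36 h post-insemination (hpi). Control embryos received DMSO, the solvent, and 10074-G5-treated embryos received 6 µM 10074-G5, a small molecule that binds MYC and prevents it from pairing with MAX. The start of treatment is given as 3 hpi in the sample labels and as 6 hpi in the series description. Polyadenylated RNA from 10 pooled embryos was sequenced per library, with 2 libraries in each group from repeats of the experiment, so p-values rest on 2 libraries against 2 and measure only the spread between these libraries.

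Pol II transcribes all protein-coding genes. TFIID, built from TBP and the TAFs, binds the core promoter first, TFIIA and TFIIB stabilize it there, TFIIF brings in the polymerase, and TFIIE and TFIIH open the DNA. In growing oocytes the TBP relative TBPL2 takes over the role of TBP, and TAF4B is a germ-cell form of TAF4. After fertilization the embryo transcribes from its own genome and again uses TBP, with the main wave of activation at the two-cell stage in the mouse.

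The libraries held between 18206584 and 20718690 expected counts. Control replicate 1 stood apart: its log2 CPM (counts scaled to library size) correlated with those of control replicate 2 at a Pearson r of 0.887 over 13549 genes, whereas control replicate 2 correlated at 0.912 and 0.926 with the 10074-G5 libraries, which correlated at 0.931 with each other. The summed FPKM (fragments scaled to transcript length and library size) of 9 two-cell embryo genes was 976 in control replicate 1, 3676 in control replicate 2, and 4774 and 5040 in the 10074-G5 libraries, so these stage markers were present in every library and lowest in control replicate 1. Of these 9 genes, 8 were higher after treatment, against 51.5% of all tested genes. Without control replicate 1, 7 of the 9 were higher, against 53% of all tested genes. All 20 oocyte genes examined were detected in every library, with summed FPKM between 22850 and 28889, but their median log2 CPM, centred on the mean of each gene, was -1.33 in control replicate 1, 0.00 in control replicate 2, and 0.60 and 0.48 in the 10074-G5 libraries. Of these 20 genes, 17 were higher after treatment, where 51.5% of all tested genes were higher. At an unadjusted p under 0.05 (edgeR), 7 were higher and 1 lower, against 4.72% and 10.1% of all tested genes. Without control replicate 1, 15 were higher, against 53% of all tested genes. The 10 genes of later lineages summed to between 23.9 and 35.4. Of the 8 tested, 7 were higher after treatment, or 5 of 8 without control replicate 1. At an unadjusted p under 0.05 (edgeR), 0 of the 8 were higher and 1 was lower. Of 13 cumulus and granulosa cell genes, 5 were abundant enough to be tested and 4 (Ptx3, Inha, Inhba and Foxl2) were at 0 in all libraries, and the summed FPKM of the 13 lay between 7.69 and 22.7. Whether the makeup of control replicate 1 contributed to the differences below was not tested, and the main values are given also without it, a choice that for the lists outside the 48 genes was made after seeing the data. Reads were not marked for strand, and 16 of the 48 genes share exon bases with another gene, so part of their counts may belong to the neighbour, as for Polr2i (26.8% of its exon bases, with Tbcb) and Tbp (19.0%, with Pdcd2). In pooled embryos, less RNA per cell cannot be told apart from fewer cells or fewer embryos contributing RNA.

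Levels of the 48 genes covered a wide range (plot of FPKM by gene). Taf9, whose product is shared by TFIID and the coactivator SAGA, had the highest FPKM, at 4682 and 3711 in control replicates 1 and 2 and 2398 and 2717 in 10074-G5 replicates 1 and 2. The largest Pol II subunit gene, Polr2a, was near the bottom, at 4.03 and 3.95 in controls and 5.36 and 3.44 after treatment. FPKM was lower for longer transcripts, with a Spearman rho of -0.720 between mean FPKM and length over the 48 genes, against -0.335 over all 13549 tested genes. These rank correlations are across genes of the same 4 libraries and describe them only, and levels of genes of very different length should be read with them in mind.

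**Figure D1:**
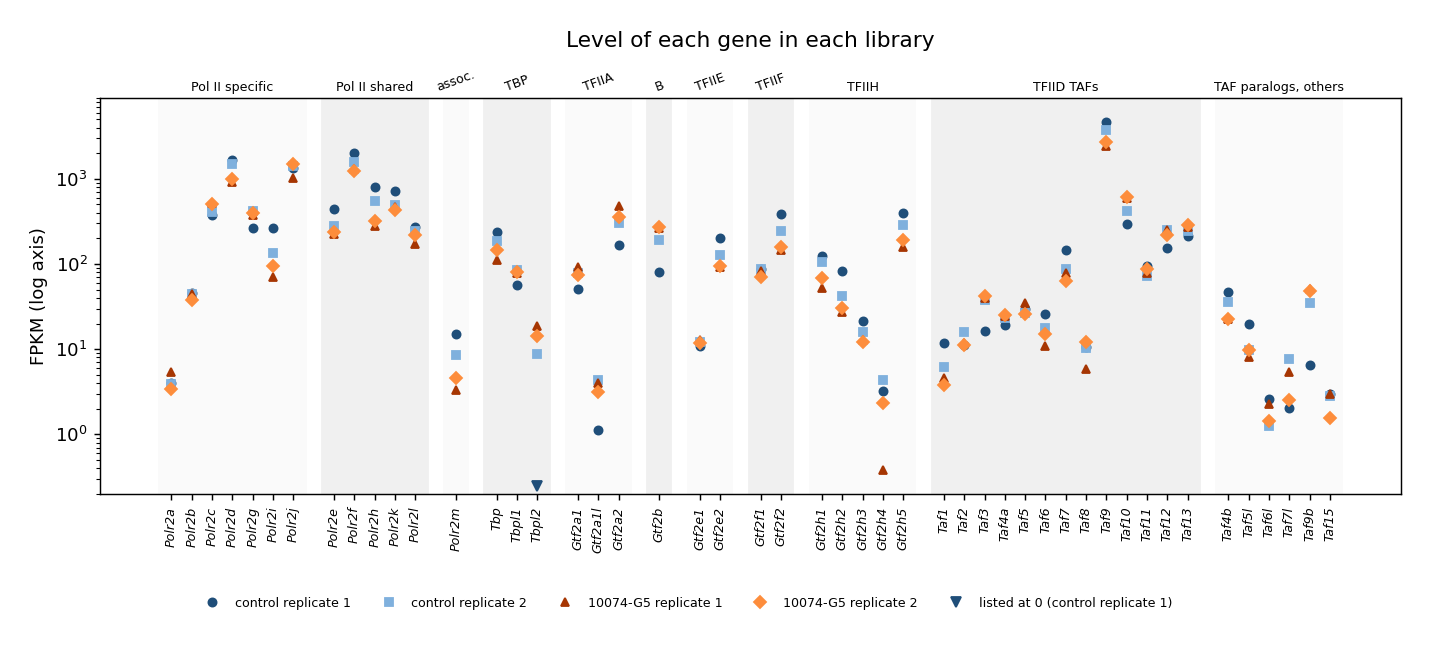
FPKM of each of the 48 genes (log axis) in each library, grouped by role, with 1 point per library and the value of 0 for Tbpl2 in control replicate 1 drawn as a downward triangle at the lower edge. The points of most genes lie close together relative to the range between genes, and Taf9 is highest.

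The comparison of 10074-G5-treated with control embryos asked whether preventing MYC-MAX pairing changed the transcripts of the basal transcription machinery. Most of these transcripts were lower in treated embryos: 34 of 48 had a negative log2 fold change (log2FC, 10074-G5 over control) and 14 a positive one, whereas 48.5% of all tested genes had a negative and 51.5% a positive one. No difference passed both thresholds of the test. With edgeR's quasi-likelihood test, 0 of 48 genes, and 0% of all tested genes in either direction, had an adjusted p under 0.05 and a log2FC beyond 1. At an unadjusted p under 0.05, 10 of the 48 were lower (20.8%, against 10.1% of all tested genes) and 0 were higher (against 4.72%). DESeq2 on the same genes called 2 lower (4.17%, against 3.48% of all tested genes), Polr2h and Polr2m, and 0 higher (against 0.701%). The median log2FC was -0.36 for the 48 and 0.04 for all tested genes.

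The groups did not overlap, with both treated libraries below both controls, for 25 genes (52.1%, against 28.3% of all tested genes), and with both above for 9 (18.8%, against 28.9%). Control replicate 1 was the highest of the 4 libraries for 28 of the 48 genes, where it was highest for 36.8% of all tested genes. Of the 34 genes lower after treatment, control replicate 1 was above control replicate 2 for 31, and of the 14 higher ones it was below for 12. Control replicate 1 also enters the log2FC by which these genes were sorted, so part of this agreement is built in. Without that library, 33 of the 48 were lower (68.8%, against 47% of all tested genes) and 15 higher (31.2%, against 53%). The median log2FC was then -0.23 against 0.06 for all tested genes. Of the 34, 29 were still lower, and of the 14, 10 still higher. The remaining libraries enter both fits, so part of this agreement is built in as well. Beyond 1 on the log2 scale, 10 genes were lower with all libraries (20.8%, against 17.8% of all tested genes) and 2 higher (4.17%, against 18.1%). Without control replicate 1, 2 were lower by that much (Gtf2h4 and Polr2m) and 0 higher. The share of all tested genes beyond 1 in that fit was not counted, so this fall cannot be set against it. Without control replicate 2 the median log2FC of the 48 was -0.59, against 0.22 for all tested genes. Without 10074-G5 replicates 1 and 2 it was -0.52 and -0.42, against 0.02 and -0.01.

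**Figure D2:**
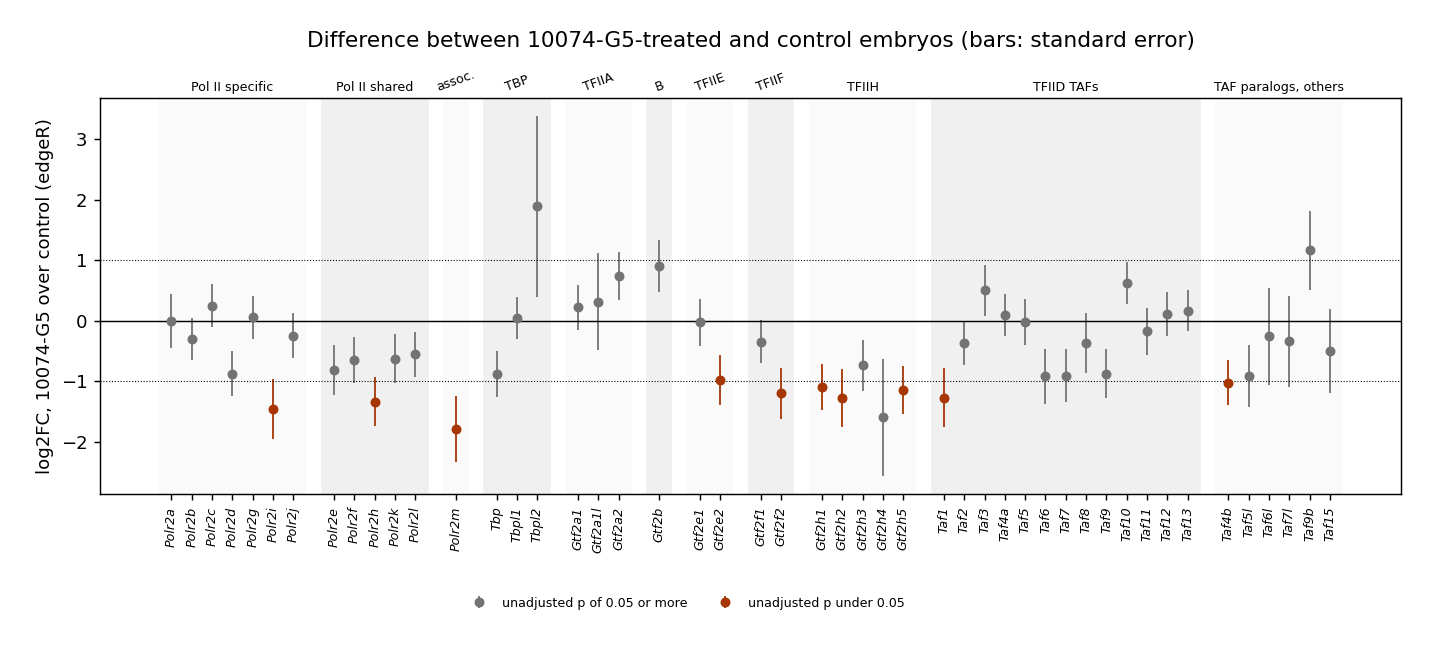
Log2FC of each of the 48 genes (10074-G5 over control, edgeR) with its standard error as a bar, grouped by role; colour marks an unadjusted p under 0.05 and dotted lines mark 1 and -1. The 10 coloured points are all below 0, and the 2 points above 1, Tbpl2 and Taf9b, have unadjusted p-values of 0.246 and 0.113.

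The subunits of Pol II itself were mostly lower in treated embryos. Of 12 subunit genes, 10 had a negative log2FC (83.3%, against 48.5% of all tested genes). Of these 10, 2 had an unadjusted p under 0.05 (16.7% of the 12, against 10.1%). The groups did not overlap for 8 lower genes (66.7%, against 28.3%) and 1 higher gene (8.33%, against 28.9%). The median log2FC was -0.59 with all libraries and -0.22 without control replicate 1, with 10 of 12 lower in both. The FPKM summed over the 12 genes was 8222 and 7062 in controls and 5393 and 6008 after treatment, so both treated libraries were below both controls. Polr2f and Polr2d held the largest shares of this sum in controls, at 24.5% and 20.4% in replicate 1. The Spearman rho between mean FPKM and length was -0.741 over these 12 genes.

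All 5 subunits that Pol II shares with Pol I and Pol III were lower in both treated libraries than in both controls. The log2FC of the 5 ran from -1.34 to -0.56, and 28.3% of all tested genes were lower without overlap. Polr2h (chr16:20717665-20722267, plus strand, mm10) was at 469 and 271 CPM in controls and 138 and 155 CPM in treated embryos. Its mean was 370 ± 140 CPM against 147 ± 11.9 CPM (SD, n = 2 each), and the groups were separate although the controls differed widely. The log2FC of Polr2h was -1.34 with an SE of 0.40 (edgeR, unadjusted p = 0.0119, adjusted p = 0.333), and -0.87 without control replicate 1. DESeq2 gave it an adjusted p of 0.0401, and over all alternatives its adjusted p ranged from 0.000672 to 0.992. Polr2f (chr15:79141009-79151774, plus strand), the gene of highest FPKM in this group and a subunit at the base of the clamp, was at 566 and 373 CPM in controls and 312 and 290 CPM after treatment. Its log2FC was -0.64 with an SE of 0.38 (edgeR, adjusted p = 0.426), and -0.29 without control replicate 1. Polr2e was at 369 and 198 against 159 and 165 CPM, Polr2k at 192 and 108 against 102 and 92.3 CPM, and Polr2l at 434 and 328 against 228 and 290 CPM. In each of the 5 genes control replicate 1 was the highest library, and the median of the group was -0.64, or -0.29 without it.

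The 7 subunits found only in Pol II were less uniform, with 5 lower and 2 higher and a median log2FC of -0.25, or -0.13 without control replicate 1. Polr2i (chr7:30231948-30233390, plus strand), a small subunit that acts in start site choice and elongation, was at 126 and 53.1 CPM in controls and 28.1 and 37.1 CPM in treated embryos. The groups did not overlap, but the controls differed more than 2-fold. Its log2FC was -1.46 with an SE of 0.50 (edgeR, unadjusted p = 0.0208, adjusted p = 0.333), and -0.69 without control replicate 1. The stalk of Pol II is made of the products of Polr2d and Polr2g, and the difference between these genes was not tested. Polr2d (chr18:31789159-31796701, plus strand), the specific subunit gene of highest FPKM in the control mean, was at 1368 and 1015 CPM in controls and 633 and 668 CPM in treated embryos, a log2FC of -0.87 with an SE of 0.38 (edgeR, unadjusted p = 0.051), and -0.63 without control replicate 1. Polr2g was at 180 and 240 CPM in controls and 214 and 223 CPM after treatment, with overlapping groups and a log2FC of 0.06.

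Polr2a and Polr2b encode the catalytic pair of Pol II. Polr2a (chr11:69733997-69758637, minus strand), whose product carries the repeated C-terminal tail, was at 29.8 and 24.6 CPM in controls and 33.3 and 21 CPM in treated embryos, with a log2FC of -0.00 and an SE of 0.44, and its sign turned when libraries were scaled by their totals (0.14). Polr2b was at 187 and 152 CPM in controls and 150 and 126 CPM after treatment, with a log2FC of -0.30 and an SE of 0.35. For the pair that starts assembly of the enzyme, Polr2c was at 567 and 505 CPM in controls and 650 and 627 CPM after treatment, the only subunit above both controls in both treated libraries. Its partner Polr2j (chr5:136116631-136122947, plus strand), the specific subunit gene of highest FPKM over all libraries, was at 471 and 423 against 311 and 442 CPM, with overlapping groups and a log2FC of -0.25 with an SE of 0.37. The log2FC of each of these 4 genes was smaller than its SE.

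Polr2m (chr9:71478437-71485935, minus strand) encodes Gdown1, a protein that binds Pol II and competes with TFIIF. It had the lowest log2FC of the 48 genes. It was at 34.1 and 16.1 CPM in controls and 6.31 and 8.2 CPM in treated embryos, with both treated libraries well below both controls and a 2-fold gap between the controls. The log2FC was -1.79 with an SE of 0.55 (edgeR, unadjusted p = 0.0127, adjusted p = 0.333), and -1.14 without control replicate 1. DESeq2 gave an adjusted p of 0.0476.

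Among the general factors, 10 of 13 genes were lower in treated embryos (76.9%, against 48.5% of all tested genes), with a median log2FC of -0.88. Of these 10, 5 had an unadjusted p under 0.05 (38.5% of the 13, against 10.1%). Without control replicate 1 the median was -0.46, with 9 of 13 lower (69.2%, against 47% of all tested genes). The direction was not the same for all factors (bar plot of group medians). Gtf2a1, Gtf2a2 and Gtf2b were higher after treatment, and the genes of TFIIE, TFIIF and TFIIH were lower, of which Gtf2e1 turned to 0.12 when libraries were scaled by their totals.

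Among the TFIIA genes, Gtf2a2 (chr9:70012550-70022866, plus strand), the small subunit and the most abundant of them per length, was at 117 and 179 CPM in controls and 289 and 208 CPM in treated embryos. Both treated libraries were above both controls, with a log2FC of 0.74 and an SE of 0.39 (edgeR, unadjusted p = 0.0984, adjusted p = 0.391), and 0.48 without control replicate 1. The gene of the large subunit, Gtf2a1 (chr12:91555262-91590487, minus strand), was at 319 and 414 CPM in controls and 478 and 378 CPM after treatment, with overlapping groups and a log2FC of 0.22. Gtf2b (chr3:142765045-142783606, plus strand) encodes TFIIB, which bridges TBP and Pol II. It was at 88.7 and 179 CPM in controls and 250 and 251 CPM in treated embryos. Its groups did not overlap, and its log2FC was 0.90 with an SE of 0.43 (edgeR, unadjusted p = 0.0704, adjusted p = 0.357) and 0.50 without control replicate 1, in which it was lowest.

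For TFIIE and TFIIF, the second subunit differed more than the first. Gtf2e2 (chr8:33731833-33777173, plus strand) was at 293 and 159 CPM in controls and 115 and 115 CPM in treated embryos, a log2FC of -0.98 with an SE of 0.41 (edgeR, unadjusted p = 0.0456, adjusted p = 0.334). Without control replicate 1 it was -0.46. Its partner Gtf2e1 was at 34.7 and 32.6 CPM in controls and 34.7 and 31.4 CPM after treatment, with no separation. Gtf2f2 (chr14:75896937-76010865, minus strand) was at 519 and 276 CPM in controls and 167 and 180 CPM in treated embryos, a log2FC of -1.20 with an SE of 0.42 (edgeR, unadjusted p = 0.0229, adjusted p = 0.333), and -0.66 without control replicate 1. Gtf2f1 was at 145 and 121 against 115 and 94.7 CPM, with a log2FC of -0.34 and an SE of 0.35 (-0.19 without control replicate 1). The differences between the subunits of a factor were not tested.

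All 5 Gtf2h genes, which encode core subunits of TFIIH, were lower in treated embryos, in both treated libraries below both controls. On the log2 scale 4 were beyond -1. Of all tested genes, 28.3% were lower without overlap and 17.8% were beyond -1. TFIIH opens promoter DNA, and through its kinase module phosphorylates the tail of Pol II, and it also serves in nucleotide excision repair. Gtf2h1 (chr7:46796103-46823800, plus strand) was at 353 and 247 CPM in controls and 123 and 158 CPM in treated embryos, a log2FC of -1.10 with an SE of 0.38 (edgeR, unadjusted p = 0.0215, adjusted p = 0.333), and -0.80 without control replicate 1. Gtf2h2 (chr13:100460218-100492579, minus strand) was at 134 and 58.5 against 37.8 and 41.4 CPM, a log2FC of -1.28 with an SE of 0.47 (edgeR, unadjusted p = 0.029, adjusted p = 0.333), and -0.55 without control replicate 1. Gtf2h5 (chr17:6079786-6086517, plus strand), the smallest subunit and the most abundant of the 5 per length, was at 409 and 247 against 136 and 161 CPM, a log2FC of -1.14 with an SE of 0.40 (edgeR, unadjusted p = 0.0223, adjusted p = 0.333), and -0.72 without control replicate 1. In each of these 3 genes control replicate 1 was the highest library, and the controls differed more than the treated libraries did. Gtf2h3 was at 57.8 and 36.9 against 29.7 and 27.2 CPM. Gtf2h4 was low in 1 library, with 88 and 110 counts in controls and 11 and 66 counts after treatment, and its log2FC of -1.60 had an SE of 0.97.

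With all libraries, 3 of the 5 Gtf2h genes were lower at an unadjusted p under 0.05 (edgeR), against 10.1% of all tested genes. Without control replicate 1, all 5 Gtf2h genes were still lower, with a median log2FC of -0.72 in place of -1.14. The 5 other TFIIH genes, which lay outside the set of 48, were also lower in both treated libraries than in both controls. Of these 5 genes, 4 had an unadjusted p under 0.05, against 10.1% of all tested genes. Their median log2FC was -1.40, or -0.96 without control replicate 1 with all 5 still lower. Ccnh, the cyclin of the TFIIH kinase, was at 183 and 80.4 CPM in controls and 41.5 and 40.6 CPM in treated embryos, a log2FC of -1.68 with an SE of 0.47 (edgeR, unadjusted p = 0.00824, adjusted p = 0.333), and -0.96 without control replicate 1. Mnat1, the assembly factor of the kinase, was at 89.6 and 57.2 against 21.3 and 34.4 CPM.

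**Figure D3:**
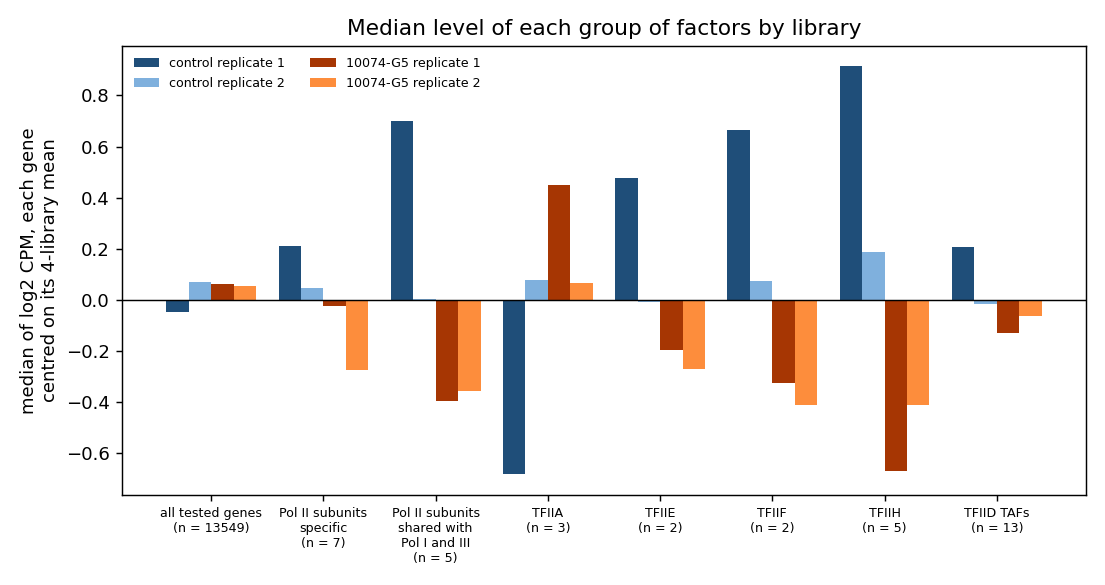
Median over the genes of each group of log2 CPM, each gene centred on its mean of the 4 libraries, with 1 bar per library from a baseline of 0. TFIIH runs from 0.91 and 0.19 in controls to -0.67 and -0.41 in 10074-G5 libraries, while all 13549 tested genes stay near 0, and for TFIIA control replicate 1 is lowest (-0.68) while control replicate 2 (0.08) and 10074-G5 replicate 2 (0.07) are alike.

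The proximal promoters are shown for a few of these genes because MYC-MAX binds the E-box CACGTG, a palindrome that reads the same on both strands. Promoters of RefSeq (assembly GRCm38.p6, the build of mm10), from 250 bases before to 50 after each start, were matched for 41 of the 48 genes. The promoters of Gtf2e2, Polr2d, Polr2g, Polr2k, Taf2, Taf4b and Taf7 were not matched. CACGTG was present in 11 of 41 (26.8%), against 11.5% of the tested genes that matched and 8.09% of all 27025 genes in the table, a gene being counted where any of its starts held it. Among the genes lower in treated embryos 8 of 28 held it (28.6%), and among the higher ones 3 of 13 (23.1%). The genes with the motif were Taf12, Gtf2h1, Taf5l, Gtf2a1, Polr2h, Gtf2h5, Taf8, Gtf2f1, Taf6l, Taf9b and Taf7l. These are matches of letters only, and the promoters of the 41 genes were rich in CpG, with a median of 24 CpG per promoter against 21 for tested genes and 8 for all genes. The 150 bases before the start are printed 5′ to 3′ on the strand of the gene, with CACGTG in capitals. Gtf2h1 (chr7:46795944-46796093, plus strand) and Gtf2h5 (chr17:6079678-6079827, plus strand) are the TFIIH genes with the motif, Taf9b (chrX:106221159-106221308, minus strand) is the gene with it that was highest above control, and Polr2h (chr16:20717676-20717825, plus strand) has its copy after the start, outside the printed stretch.
Gtf2h1: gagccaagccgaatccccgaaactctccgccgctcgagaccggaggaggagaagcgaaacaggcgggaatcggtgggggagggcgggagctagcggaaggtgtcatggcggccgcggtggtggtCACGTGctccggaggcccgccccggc
Gtf2h5: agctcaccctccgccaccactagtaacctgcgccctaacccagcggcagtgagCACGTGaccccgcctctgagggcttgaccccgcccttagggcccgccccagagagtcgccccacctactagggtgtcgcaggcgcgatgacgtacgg
Taf9b: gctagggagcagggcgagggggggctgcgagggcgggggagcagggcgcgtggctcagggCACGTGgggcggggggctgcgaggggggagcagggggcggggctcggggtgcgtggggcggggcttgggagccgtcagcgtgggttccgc
Polr2h: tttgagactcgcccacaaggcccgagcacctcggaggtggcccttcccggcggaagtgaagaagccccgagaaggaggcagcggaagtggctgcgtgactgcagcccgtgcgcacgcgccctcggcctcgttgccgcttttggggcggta

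TBP and its relatives differed in direction. Tbp (chr17:15499888-15528379, plus strand), the DNA-binding core of TFIID, was at 422 and 281 CPM in controls and 168 and 214 CPM in treated embryos. Its mean was 351 ± 99.6 CPM against 191 ± 32.4 CPM (SD, n = 2 each), and both treated libraries were below both controls. The log2FC was -0.88 with an SE of 0.39 (edgeR, unadjusted p = 0.0539, adjusted p = 0.343), and -0.54 without control replicate 1. Tbpl1 (chr10:22703879-22731938, minus strand), a relative that does not bind the TATA box, was at 167 and 214 CPM in controls and 195 and 199 CPM after treatment, with overlapping groups and a log2FC of 0.05.

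Tbpl2 (chr2:24071721-24096595, minus strand), the oocyte form, was detected in 3 of 4 libraries. It had 0 counts in control replicate 1, which allows up to 0.180 CPM, and 231 counts in control replicate 2. The treated libraries had 566 and 405 counts, or 26.3 and 19.3 CPM against 12.2 CPM in control replicate 2. Both treated libraries were above both controls, and the log2FC of 1.89 had an SE of 1.50 (edgeR, unadjusted p = 0.246), with 0.91 without control replicate 1. The oocyte and two-cell gene lists moved the same way, with 17 of 20 and 8 of 9 higher, against 51.5% of all tested genes. Their part in this was not tested. A fold against the control group depends on a library at 0 and is not given further. Tbpl2 made up 0% and 4.49% of the summed FPKM of Tbpl2 and Tbp in controls and 14.4% and 8.89% in treated embryos, so Tbp was the more abundant form in every library. Tbpl1 made up 19.2% and 31.4% of Tbpl1 and Tbp in controls and 41.2% and 35.9% in treated embryos. Intervals and limits from counts cover counting error only, since PCR copies were counted like separate molecules.

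The 150 bases before the starts of Tbp (chr17:15499738-15499887, plus strand) and Tbpl2 (chr2:24096596-24096745, minus strand) are printed to set the promoter of the somatic form beside that of the oocyte form. Neither holds CACGTG, and they hold 9 and 2 CpG respectively.
Tbp: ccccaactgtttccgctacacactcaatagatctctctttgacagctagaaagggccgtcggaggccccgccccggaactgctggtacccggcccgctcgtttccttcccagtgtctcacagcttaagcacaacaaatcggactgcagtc
Tbpl2: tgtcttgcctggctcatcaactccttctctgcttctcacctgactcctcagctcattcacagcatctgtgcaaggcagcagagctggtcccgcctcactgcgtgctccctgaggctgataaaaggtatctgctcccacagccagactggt

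Of the 13 TAFs of TFIID, 8 were lower (61.5%, against 48.5% of all tested genes). Of these 8, 1 had an unadjusted p under 0.05 (7.69% of the 13, against 10.1%). The median log2FC of the TAFs was -0.17 (range -1.27 to 0.62), nearer to that of all tested genes. With libraries scaled by their totals the median of the TAFs was -0.01, while that of all tested genes was 0.17. The groups did not overlap for 5 lower genes (38.5%, against 28.3% of all tested genes) and 4 higher genes (30.8%, against 28.9%). Control replicate 1 was the highest library for 6 of 13 (46.2%, against 36.8%). The exception at an unadjusted p under 0.05 was Taf1 (chrX:101532734-101601789, plus strand), the largest TAF and the scaffold of the complex. It was at 104 and 45.7 CPM in controls and 34.4 and 27.7 CPM in treated embryos, a log2FC of -1.27 with an SE of 0.49 (edgeR, unadjusted p = 0.0333, adjusted p = 0.333). The controls differed more than 2-fold, and the log2FC without control replicate 1 was -0.54.

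Taf9 (chr13:100651579-100656060, plus strand) was at 5066 and 3374 CPM in controls and 2188 and 2423 CPM in treated embryos, a log2FC of -0.87 with an SE of 0.41 (edgeR, unadjusted p = 0.0687, adjusted p = 0.354). Its groups did not overlap, and it was -0.53 without control replicate 1. Taf9 shares 73.8% of its exon bases with Ak6 on the same strand, so reads of the pair could be divided between them by the counting, and its level is uncertain. The FPKM of Ak6 was 481 and 258 in controls and 89.2 and 137 in treated embryos. Taf7 was at 509 and 258 against 228 and 181 CPM, and Taf6 at 59.6 and 33.6 against 21 and 28.2 CPM, both with separate groups, and their log2FC of -0.91 and -0.92 became -0.32 and -0.43 without control replicate 1. Higher in both treated libraries were Taf10 (chr7:105739393-105744361, minus strand), at 161 and 193 against 273 and 273 CPM (log2FC of 0.62 with an SE of 0.35, and 0.51 without control replicate 1), and Taf3, which binds the active promoter mark on histone H3, at 85 and 166 against 175 and 181 CPM (log2FC of 0.51, and 0.12 without control replicate 1). Of the exon bases of Taf10, 45.9% overlap those of Ilk on the opposite strand, and reads of the 2 genes cannot be told apart without strand. Taf13 was at 245 and 235 against 267 and 272 CPM. Taf2 was at 61.7 and 72.5 against 53.9 and 50.3 CPM, below both controls. Taf5, Taf8, Taf11 and Taf12 had overlapping groups, with log2FC from -0.36 (Taf8) to 0.11 (Taf12).

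The germ-cell and other variant forms were compared with their counterparts by the share of the variant in the summed FPKM of the pair, in 6 pairs (bar plot of shares). Taf4b is the oocyte form of the pair it makes with Taf4a. Taf4b (chr18:14783245-14900359, plus strand) was at 261 and 169 CPM in controls and 106 and 105 CPM in treated embryos. Its mean was 215 ± 64.8 CPM against 106 ± 0.691 CPM (SD, n = 2 each), a log2FC of -1.02 with an SE of 0.38 (edgeR, unadjusted p = 0.0282, adjusted p = 0.333), and -0.66 without control replicate 1. Taf4a (chr2:179912152-179976646, minus strand) was at 91 and 93.6 CPM in controls and 98.9 and 98.1 CPM after treatment, a log2FC of 0.09 with an SE of 0.34. Taf4b thus made up 70.9% and 60.5% of the pair in controls and 47.7% and 47.7% in treated embryos. The log2 ratio of Taf4b to Taf4a differed by -1.08, and the exact two-sided permutation p was 0.333, the smallest that 2 against 2 libraries can give (0.5 adjusted over the 6 pairs).

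The oocyte forms Tbpl2 and Taf4b differed in direction: the Tbpl2 share was higher in both treated libraries and the Taf4b share lower. Taf9b (chrX:106206883-106221158, minus strand), a relative of Taf9, was at 16.9 and 76.5 CPM in controls and 109 and 101 CPM in treated embryos, a log2FC of 1.17 with an SE of 0.65 (edgeR, unadjusted p = 0.113, adjusted p = 0.406). Control replicate 1 was far below the other libraries, and without it the log2FC was 0.47. Its share of the pair with Taf9 was 0.140% and 0.943% in controls and 2.05% and 1.73% after treatment. Taf9 was itself lower after treatment, and its level is uncertain because it shares exon bases with Ak6, so this share is uncertain too. For Tbpl1, Tbpl2 and Taf9b the exact permutation p of the ratio was also 0.333, and for Gtf2a1l and Taf7l it was 1.

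Gtf2a1l (chr17:88668660-88715152, plus strand), the germ-cell form of the large TFIIA subunit, was at 1.74 and 5.61 CPM in controls and 5.19 and 3.96 CPM in treated embryos, and Taf7l (chrX:134460118-134476490, minus strand), a testis form of Taf7, at 3.89 and 12.2 against 8.72 and 4.01 CPM. The groups of both overlapped. Their shares of the pairs with Gtf2a1 and Taf7 stayed under 10% in every library. Taf5l and Taf6l, the forms of Taf5 and Taf6 used in SAGA, were at 58.8 and 24.8 against 20.3 and 24.1 CPM and at 5.81 and 2.33 against 4.17 and 2.62 CPM. Taf15, an RNA-binding protein of the FET family, was at 6.11 and 4.87 against 5.15 and 2.62 CPM.

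**Figure D4:**
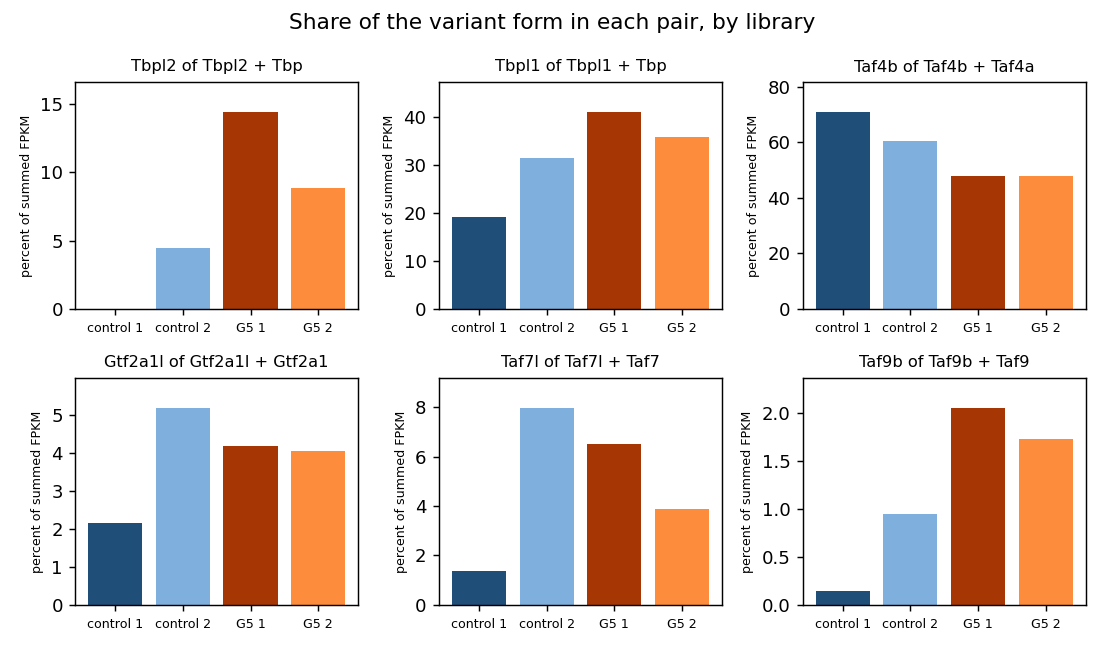
Share of the variant form in the summed FPKM of each of 6 pairs, in percent and by library (G5, 10074-G5), with bars from 0 and a separate axis for each pair. The Taf4b share is 70.9% and 60.5% in controls and 47.7% in both treated libraries, and the shares of Tbpl2, Tbpl1 and Taf9b are higher in both treated libraries than in both controls. The Taf9b share rests on Taf9, whose level is uncertain.

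Genes that work with Pol II and TBP were read in the same way, from 2 lists. Of 14 genes for the assembly and nuclear import of Pol II, 11 were lower, against 48.5% of all tested genes. At an unadjusted p under 0.05, 3 were lower and 1 (Rpap2) was higher, against 10.1% and 4.72% of all tested genes. The median log2FC of the 14 was -0.51. When control replicate 1 was left out, 10 were lower, against 47% of all tested genes, and the median was -0.21. Gpn3, a GTPase needed to bring Pol II into the nucleus, was at 473 and 234 CPM in controls and 89.7 and 109 CPM in treated embryos, a log2FC of -1.83 (edgeR, unadjusted p = 0.00395, adjusted p = 0.333), and -1.22 without control replicate 1. Rprd1b, which binds the tail of Pol II, was at 102 and 62.9 against 29.8 and 28.2 CPM. Of 5 regulators and relatives in the TBP list, 4 were lower, against 48.5% of all tested genes. At an unadjusted p under 0.05 (edgeR), 2 were lower and 1 (Drap1) was higher, against 10.1% and 4.72% of all tested genes. When control replicate 1 was left out, 3 of the 5 were lower, against 47% of all tested genes. Dr1, a subunit of the TBP repressor NC2, was at 446 and 289 against 177 and 205 CPM, and Brf2, a TFIIB relative of Pol III, at 102 and 52.3 against 26 and 32.6 CPM. Without control replicate 1 their log2FC was -0.58 and -0.82.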

How the data were processed

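The libraries were made with the SMART-Seq v4 PLUS kit from polyadenylated RNA. Reads were aligned to mm10 with STAR (version 2.7.10) and quantified with RSEM (version 1.3.3), keeping uniquely mapped reads. For each gene the authors deposited the expected count (RSEM's estimate of its fragments, not normalized), the TPM (scaled by effective length to a common total), the FPKM (scaled by effective length and by library size) and its lengths. From 3.97% to 4.49% of expected counts in a library were not whole.

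Expected counts were rounded. Genes were kept by filterByExpr of edgeR 4.0.16 (minimum count 10, minimum total 15) in R 4.3.3, scaled with TMM factors (0.873 and 1.04 for controls, 1.04 and 1.06 for 10074-G5), and tested with the quasi-likelihood test with Benjamini-Hochberg adjustment over 13549 genes. The common biological coefficient of variation was 0.557, and the smallest adjusted p was 0.333. CPM values use the TMM factors. Thresholds were an adjusted p under 0.05 and |log2FC| > 1. The fit was tested on simulated data. DESeq2 1.42.0 and limma 3.58.1 were alternatives. Ratios of paired forms used log2(FPKM + 0.1) and an exact two-sided permutation test. Gene positions and shared exon bases were taken from a GENCODE annotation of mm10.

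The genes and lists were chosen with earlier results of these data known. Values in full are given for genes with an unadjusted p under 0.05, the gene of highest mean FPKM of each role and the paired forms, and for the 2 genes of smallest unadjusted p in each other list. The values of 1 gene of these lists are not reported here.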

Additional observations from a re-analysis of the deposited data

How the results depend on the processing

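Of the log2FC values of the 48 genes under 14 alternatives, 614 kept their direction and their side of the thresholds, 28 passed the thresholds in an alternative and 29 turned sign; the cause was not tested. With DESeq2, 2 genes (Polr2h and Polr2m) were called lower, both among the 13549 genes and among those with a count in any library, and 1 (Polr2h) with transcript lengths as offsets; over all tested genes DESeq2 called 471 lower and 95 higher. Leaving out each library gave 0 to 18 of the 48 called lower and 0 to 5 called higher, the upper ends without control replicate 2, when 2065 genes in all were called lower and 2148 higher. The counts without each library were chosen after seeing the data: at an unadjusted p under 0.05 from 0 to 21 genes were lower and from 0 to 6 higher, and 9 to 15 higher genes had groups that did not overlap. The upper ends came without control replicate 2, when 20.5% of all tested genes were lower and 21.5% higher at that level (43.8% and 12.5% of the 48) and 44.3% were higher with no overlap (31.2% of the 48). The median of the polymerase subunits ranged from -0.83 to -0.22 in these fits. The fit without control replicate 2 held 14669 genes and rested on control replicate 1 alone for the control group. Of the 48, a larger share than of these genes was called lower and a smaller share higher. Library totals moved the median of all genes by 0.13, and that of the TFIID TAFs was then -0.0077; with limma on log2(FPKM + 1) and log2(FPKM + 0.1) it was -0.0020 and -0.0019.

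The numbers of the replicates were not shown to pair the libraries (r = -0.034 between deviations of the same-numbered libraries over 13549 genes). With the replicate block, 0 of the 48 genes were called in either direction, and 32 genes in all were called lower and 12 higher.

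Signs turned for these genes, all with log2FC within 0.4 of 0 in the full fit. With library totals Gtf2e1 was 0.12, Polr2a 0.14 and Taf5 0.13; with at least 10 counts in every library they were 0.0034, 0.027 and 0.0060; with limma they were 0.11, 0.091 and 0.11 (FPKM + 1) and 0.11, 0.10 and 0.11 (FPKM + 0.1). When each library was left out, Gtf2a1l ranged from -0.28 to 1.39, Gtf2e1 from -0.071 to 0.044, Polr2a from -0.33 to 0.29, Polr2g from -0.12 to 0.27, Polr2j from -0.52 to 0.03, Taf11 from -0.46 to 0.20, Taf12 from -0.080 to 0.35, Taf5 from -0.23 to 0.20, Taf6l from -0.77 to 0.56, Taf7l from -0.97 to 0.71, Taf8 from -0.95 to 0.094 and Tbpl1 from -0.11 to 0.24. The ratios of Gtf2a1l to Gtf2a1 and of Taf7l to Taf7 turned to -0.34 and -0.68 without control replicate 1, and ranged up to 0.89 and 1.90 when the other libraries were left out. The number of libraries, with 2 in each group, limits all tests.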

Other observations

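The subunits of the other nuclear polymerases were lower in treated embryos along with those shared with Pol II. Of 6 subunits specific to Pol I, which makes ribosomal RNA, all 6 were lower, with a median log2FC of -1.51. At an unadjusted p under 0.05 (edgeR) 4 were lower, against 10.1% of all tested genes, and DESeq2 called 4 lower, against 3.48%. Leaving out control replicate 1 gave 5 lower genes, against 47% of all tested genes, and a median of -0.79. Twistnb was at 214 and 125 CPM in control replicates 1 and 2 and 56.7 and 48.1 CPM in 10074-G5 replicates 1 and 2, a log2FC of -1.69 with an SE of 0.41 (edgeR, unadjusted p = 0.00374, adjusted p = 0.333), and -1.24 without control replicate 1. Cd3eap was at 76.4 and 40.9 against 13.3 and 22.7 CPM.

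Of 10 tested subunits specific to Pol III, which makes transfer RNA, all 10 were lower, with a median log2FC of -1.19. At an unadjusted p under 0.05 (edgeR) 6 were lower, against 10.1% of all tested genes, and DESeq2 called 3 lower, against 3.48%. Leaving out control replicate 1 gave 9 lower genes, against 47% of all tested genes, and a median of -0.78. Crcp was at 114 and 101 against 43.8 and 37.1 CPM, a log2FC of -1.41 (edgeR, unadjusted p = 0.00537), and -1.30 without control replicate 1. The subunits common to Pol I and Pol III, Polr1c and Polr1d, had a median log2FC of -0.68, or -0.25 without control replicate 1. For comparison, the 7 subunits specific to Pol II had a median of -0.25, or -0.13 without control replicate 1. The difference between the polymerases was not tested. Of 14 subunits of SAGA outside the TAFs, 9 were lower, against 48.5% of all tested genes. Of these 9, 2 had an unadjusted p under 0.05 (against 10.1% of all tested genes), and the median of the 14 was -0.40. Its direction turned without control replicate 1, with 5 lower, 9 higher and a median of 0.13. Of all tested genes, 47% were lower and 53% higher in that fit. Ccdc101 was at 58.4 and 25.9 against 12.7 and 13.9 CPM, and Usp22 at 132 and 59.1 against 29.8 and 39.2 CPM.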
